A study of Mus musculus with 6 samples.

Results

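The genes described here belong to B cells and to the plasma cells they give rise to. They are Cd22, Cd79a, Cd79b, Ms4a1, Ighm, Ighd, Igkc, Jchain and Pax5, 9 genes taken by name from a table of gene counts in mouse liver. Of these, 8 had a row by that name among the 40481 genes of that table, and 7 had enough reads to be tested. Ighd, which encodes the constant part of the IgD heavy chain, had no row by that name and was not analysed here.

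The livers came from Mttp f/f Villin Cre ERT2 mice on a C57BL/6 background, aged 12 to 16 weeks. These mice carry floxed alleles of Mttp, which encodes a protein needed to put lipid on apolipoprotein B, and a Cre recombinase that tamoxifen switches on in cells where the villin promoter is active, mainly intestinal epithelium. Mttp-IKO mice received tamoxifen (50 µg per g of body weight per day for 5 days). Control mice, whose labels read wild type, were littermates with the same floxed and Cre alleles that received vehicle, so tamoxifen and Mttp deletion differed together and cannot be told apart. All mice ate a methionine- and choline-deficient (MCD) diet for 3 weeks, beginning 3 weeks after the injections, which brings on steatohepatitis, and were fasted for 4 h. The comparison asks how liver transcripts differ on this diet when the gut cannot export dietary fat normally. Each genotype gave 3 pools of liver RNA, each from 3 to 4 mice, so the values describe pools and not single animals.

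B cells sense antigen through the B cell receptor, a membrane antibody held by the signaling proteins CD79A and CD79B, and they mature under transcription factors such as PAX5. After activation they may switch their antibody from IgM to IgG, IgA or IgE and become plasma cells, which lose most surface receptors and make antibody mRNA in very large amounts. Liver holds few B cells, so their transcripts are scarce in whole liver RNA, and in such bulk RNA fewer cells of a type and less RNA per cell cannot be told apart.

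The pools held 25271585 to 36238734 reads on genes, and 3 reads, the most that a count of 0 allows, came to between 0.0743 and 0.126 CPM (reads scaled to library size and composition). Mttp itself, which the intestinal Cre is not meant to delete in liver, had 3646, 6695 and 5607 reads in the control pools and 4496, 3751 and 3827 in the Mttp-IKO pools, so liver RNA gives no check of the deletion. Across all genes, 694 of 17287 passed the test, 4.01% of those tested, with 3.09% lower and 0.92% higher in Mttp-IKO livers. Calls across all genes depended on single pools: 24, 892 and 21 genes passed without control pool 1, 2 or 3, and 55, 0 and 864 without Mttp-IKO pool 1, 2 or 3 (in edgeR, with 3221 at an unadjusted p under 0.05 where none passed). Mttp-IKO pool 3 stood apart, since small RNA genes took 0.289% of its reads (1.92 to 3.51% elsewhere) and mRNAs of 300 to 1000 bases took 1.70% (3.62 to 3.84% elsewhere). Control pool 2 stood apart in fat cell transcripts, described below with the antibody segments.

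Cd22 fell in Mttp-IKO livers, and no other member passed the test. The other B cell receptor genes Cd79a and Cd79b and the IgM gene Ighm were also low in every Mttp-IKO pool but missed the threshold, while the light chain gene Igkc, the joining chain gene Jchain and the transcription factor gene Pax5 overlapped between genotypes. Of the 7 members tested, 1 was called, beside 4.01% of all genes, and 4 were lower with no overlap between the pools of the genotypes, beside 16.5% of all genes tested. The median log2 fold change of the 7 was -1.53, beside 0.01 over all genes tested. Cd79a and Cd79b passed the filter on low counts only through the control pools, where they were higher, so the counts and the median over the tested members are a description. Tests were made with edgeR's quasi-likelihood F test, with Benjamini-Hochberg adjustment over all 17287 genes and a threshold of 0.05.

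**Figure D1:**
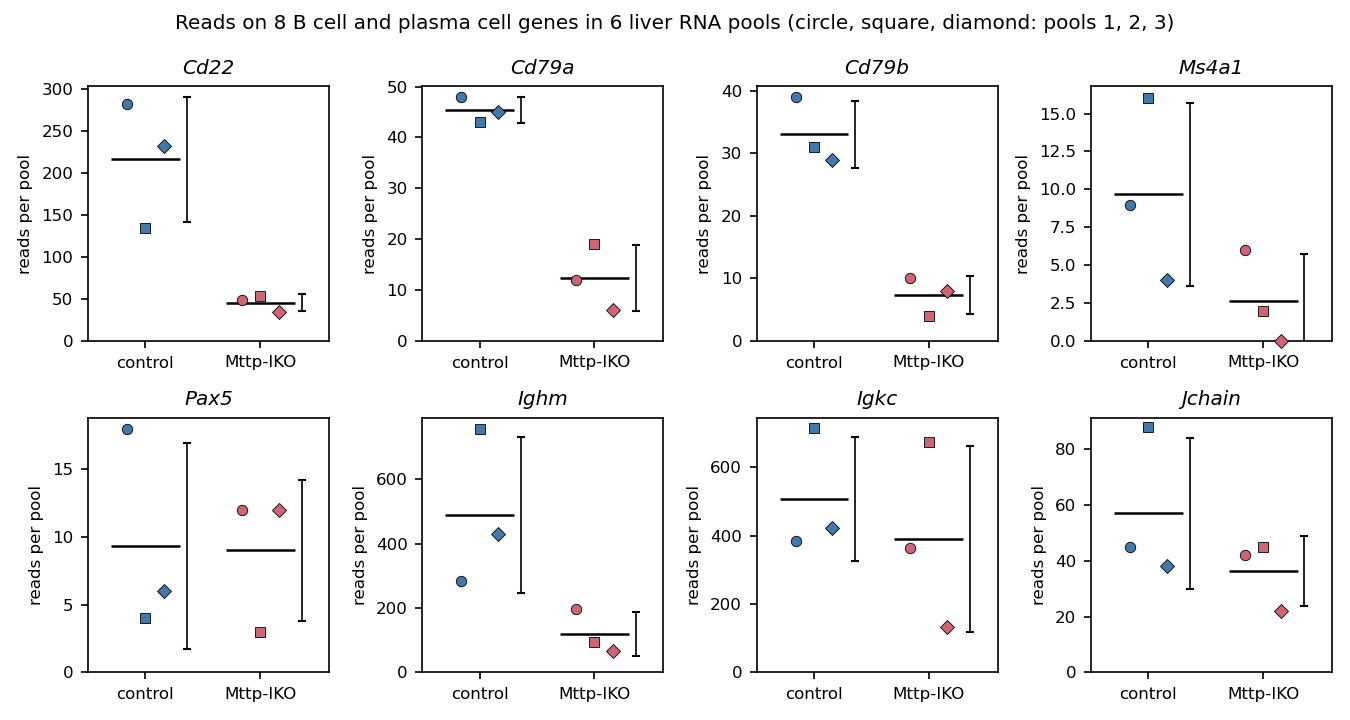
Reads on the 8 members with a row (vertical axes, reads per pool, not scaled for depth) in the control and Mttp-IKO pools. Symbols are single pools, horizontal lines are means and vertical bars are SD with the part under 0 left out; Cd22, Cd79a, Cd79b and Ighm have every Mttp-IKO pool under every control pool, whereas the other 4 overlap.

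Cd22 encodes an inhibitory coreceptor of B cells that binds sialic acid and dampens receptor signaling (chromosome 7, 30865402 to 30880342, minus strand, GRCm38). An antisense gene that overlaps it, Gm29439, had no read in any pool. Cd22 had 282, 135 and 232 reads in the control pools and 49, 53 and 34 in the Mttp-IKO pools. The highest Mttp-IKO pool was far below the lowest control pool. Scaled for depth and composition, its level was 5.99 ± 1.95 CPM in control and 1.61 ± 0.197 CPM in Mttp-IKO livers (SD, n = 3 pools each), 3.72-fold lower, with a log2 fold change of -1.89 (SE 0.31, edgeR adjusted p = 0.0241). With 2 pools left in 1 group, the call was lost without control pool 1 (adjusted p = 0.105), control pool 3 (0.103), Mttp-IKO pool 1 (0.0734) or Mttp-IKO pool 2 (0.108), each with the fold change between -2.16 and -1.76.

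The promoters of Cd22, which passed the test, and of Cd79a, which did not, are shown here because EBF1, a factor that opens B cell genes, is known to act on B cell receptor genes. RefSeq promoters of GRCm38.p6, from 250 bases before to 50 bases after the start, were matched for 4 members, which are Cd22, Cd79a, Jchain and Pax5. The letters TCCC, any 2 bases and GGGA, which read the same on both strands and are a common form of the EBF1 site, were in the Cd22 promoter, beginning 49 bases before the start, and in 297 of 32851 promoters (0.904%) overall. The octamer ATGCAAAT, searched on both strands, was in 570 promoters (1.74%) and in none of the 4. Capitals mark the match.
Cd22, chr7:30878979-30879278, minus strand: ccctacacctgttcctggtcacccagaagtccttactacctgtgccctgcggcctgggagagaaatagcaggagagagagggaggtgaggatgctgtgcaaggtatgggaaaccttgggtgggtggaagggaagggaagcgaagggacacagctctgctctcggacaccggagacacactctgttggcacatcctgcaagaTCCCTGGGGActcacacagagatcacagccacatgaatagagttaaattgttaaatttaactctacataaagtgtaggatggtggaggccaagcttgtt
Cd79a, chr7:24897247-24897546, plus strand: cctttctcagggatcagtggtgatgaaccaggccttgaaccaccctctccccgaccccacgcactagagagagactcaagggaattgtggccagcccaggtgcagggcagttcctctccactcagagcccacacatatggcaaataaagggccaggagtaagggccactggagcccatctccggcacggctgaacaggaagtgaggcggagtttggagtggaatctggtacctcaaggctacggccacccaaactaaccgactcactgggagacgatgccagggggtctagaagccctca
A match describes these letters only, and binding was not measured. The Cd79a promoter had no match to this 1 fixed pattern, which does not show that it lacks an EBF1 site, since sites of other forms were not searched.

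Cd79a and Cd79b encode the signaling pair that carries the B cell receptor's message into the cell. Cd79a (chromosome 7, 24897381 to 24902197, plus strand) had 48, 43 and 45 reads in the control pools and 12, 19 and 6 in the Mttp-IKO pools. Cd79b (chromosome 11, 106311341 to 106314762, minus strand) had 39, 31 and 29 reads against 10, 4 and 8. For both genes the control pools were close together and every Mttp-IKO pool was lower. The log2 fold change was -1.53 (SE 0.41, edgeR adjusted p = 0.0805) for Cd79a. It was -1.78 (SE 0.44, edgeR adjusted p = 0.0653) for Cd79b. With DESeq2's Wald test both passed (adjusted p = 0.0217 and 0.0202), and over all alternatives the adjusted p ran from 0.0217 to 0.266 for Cd79a and from 0.0202 to 0.221 for Cd79b. Of the 50-base stretches of Cd79a transcripts, 8.31% also occur in transcripts of Gm32220, so a part of its reads could not be placed with certainty.

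Ms4a1 encodes CD20, a surface protein of B cells that plasma cells lose (chromosome 19, 11249675 to 11266241, minus strand). It had 9, 16 and 4 reads in the control pools and 6, 2 and 0 in the Mttp-IKO pools, too few for the test. The groups overlapped, and the 0 in Mttp-IKO pool 3 allows up to 0.126 CPM. Pax5 encodes the factor that sets and keeps B cell identity (chromosome 4, 44531145 to 44710487, minus strand). Its reads were 18, 4 and 6 in control and 12, 3 and 12 in Mttp-IKO livers, with a log2 fold change of 0.37 (SE 0.72, edgeR adjusted p = 0.796). These counts cannot show even a large change, and they cover 27.8% of the exon bases that GENCODE M21 gives to Pax5. A row with no gene name (ENSMUSG00000099065, chromosome 4, 44524757 to 44529159, minus strand) lies inside the long last exon of Pax5 in that annotation, and had 19, 17 and 12 reads in control and 7, 4 and 2 in Mttp-IKO pools. The groups of this unnamed row did not overlap, and its log2 fold change was -1.51 (SE 0.50, edgeR adjusted p = 0.131). It passed the filter on low counts only through the control pools and is given as a description, so it says nothing about a change of Pax5.

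Ighm encodes the IgM heavy chain constant region, both as the B cell receptor and as secreted antibody (chromosome 12, 113418950 to 113422730, minus strand). It had 284, 757 and 429 reads in the control pools and 196, 94 and 68 in the Mttp-IKO pools. The pools spread widely, and scaled for depth the lowest control pool (7.03 CPM) was just above the highest Mttp-IKO pool (6.31 CPM). Mean levels were 13.8 ± 6.98 and 4.13 ± 1.90 CPM (SD, n = 3 pools each). The log2 fold change of Ighm was -1.73 (SE 0.45, edgeR adjusted p = 0.0718). Over all alternatives the adjusted p ran from 0.00227, with DESeq2, to 0.214, and without control pool 2, the highest, the log2 fold change was -1.31. The counted exons hold parts of the membrane and of the secreted form, so these counts do not tell the forms apart.

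Igkc and Jchain, the members that plasma cells transcribe most, did not separate the genotypes. Igkc, the constant region of the kappa light chain that most mouse antibodies carry (chromosome 6, 70726435 to 70726757, plus strand), had 384, 715 and 421 reads in control and 363, 673 and 132 in Mttp-IKO pools. Both groups span a wide range, and the lowest value is that of Mttp-IKO pool 3. The log2 fold change of Igkc was -0.07 (SE 0.48, edgeR adjusted p = 0.946), and 0.30 without that pool (adjusted p = 0.653). Igkc is counted over 323 bases, within the range of short mRNAs that were scarce in Mttp-IKO pool 3, and the part this plays in its value was not tested beyond leaving the pool out. Jchain, which links IgM and IgA molecules into polymers (chromosome 5, 88520512 to 88527891, minus strand), had 45, 88 and 38 reads against 42, 45 and 22, with a log2 fold change of -0.31 (SE 0.41, edgeR adjusted p = 0.689). The SE of both genes is as wide as that of Cd79a or Cd79b, so these p-values do not show equal levels.

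Per gene length, in the deposited RPKM (reads scaled to gene length and library size), Igkc had the highest level of the members in both groups, at 46.2 ± 15.2 in control and 38.6 ± 24.1 in Mttp-IKO livers (SD, n = 3 pools each). Ighm came next at 9.75 ± 4.59 and 2.64 ± 1.31 RPKM. Cd22 (1.29 ± 0.450 RPKM), Cd79a (0.921 ± 0.0914), Jchain (0.917 ± 0.397) and Cd79b (0.678 ± 0.0695) followed in control livers, and none of these neighbours differed from the next beyond their spread. Jchain (0.657 ± 0.155 RPKM) stood above Cd22 (0.302 ± 0.0294) in Mttp-IKO livers. Pax5 (0.109 ± 0.0817 in control) and Ms4a1 (0.0449 ± 0.0263) had the lowest levels, and these did not differ beyond their spread.

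The heavy chain genes were compared within each pool, as the share of Ighm among all reads on heavy chain constant genes. This share does not depend on the total of such reads in a pool. It can move with the mix of B cells and plasma cells as well as with antibody class, and these were not told apart here. Ighm took 36.7, 57.8 and 57.0% of the heavy chain constant reads in the control pools and 32.3, 10.4 and 21.3% in the Mttp-IKO pools. The groups did not overlap, although control pool 1 and Mttp-IKO pool 1 were close, and their 95% Wilson intervals (33.4 to 40.1% and 28.7 to 36.2%, counting error only) overlapped. The mean was 50.5 ± 12.0% in control and 21.4 ± 10.9% in Mttp-IKO livers (SD, n = 3 pools each), a difference of -29.1 percentage points with p = 0.1 in an exact two-sided permutation test, the smallest that 3 against 3 pools can give (0.3 adjusted over 3 such tests). Leaving out the reads of Igha, a gene that plasma cells of the gut also express, the Ighm share was 64.1, 79.9 and 72.6% against 54.4, 15.5 and 37.6%.

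**Figure D2:**
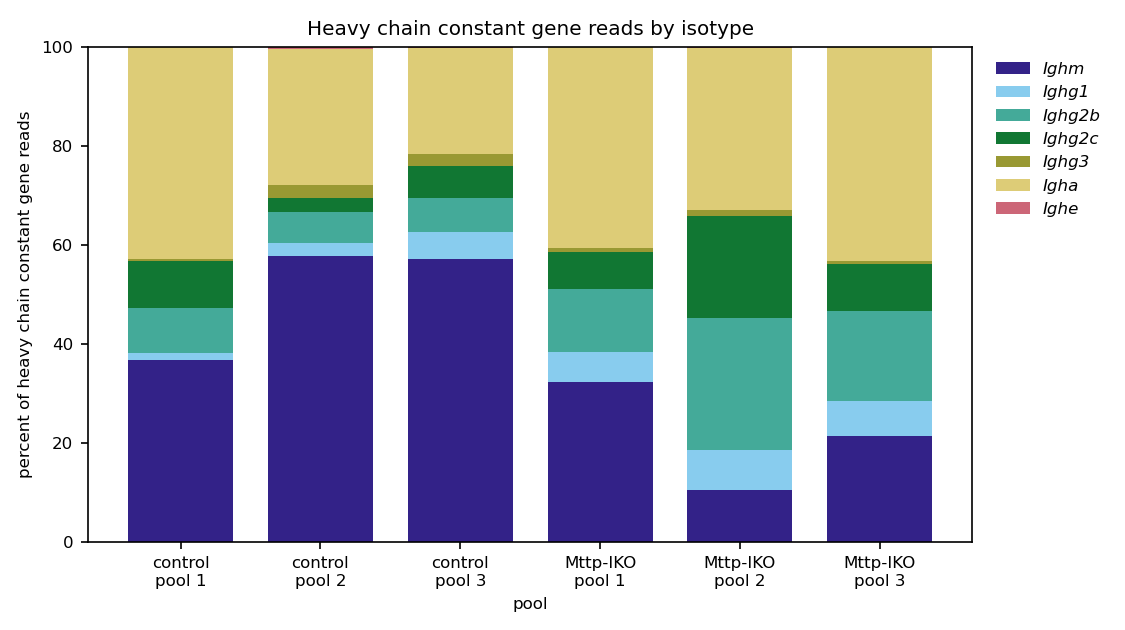
Percent of reads on heavy chain constant genes (vertical axis) taken by each gene, for each of the 6 pools. Ighm takes 36.7 to 57.8% in control and 10.4 to 32.3% in Mttp-IKO pools, and the 4 IgG genes together take 14.3 to 21.4% and 27.1 to 56.7%.

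The IgG genes together took 20.5, 14.3 and 21.4% in control and 27.1, 56.7 and 35.4% in Mttp-IKO pools, again without overlap. Since shares of a pool sum to the whole, this is the other side of the Ighm share and no separate result. In reads, Ighg2b had 70, 82 and 52 in control and 78, 240 and 58 in Mttp-IKO pools, where Mttp-IKO pool 2 stood out. The log2 fold change of Ighg2b was 1.23 (SE 0.49, edgeR adjusted p = 0.190), and 0.40 without that pool (adjusted p = 0.512). Ighg2c followed the same pools, with 73, 37 and 48 reads against 45, 186 and 30 (log2 fold change 1.07, SE 0.62, edgeR adjusted p = 0.345, and -0.09 without Mttp-IKO pool 2), and it shares 5.49% of its 50-base stretches with Ighg2b. Ighg1 had 12, 33 and 42 reads against 36, 73 and 23, and Ighg3 had 4, 35 and 19 against 5, 11 and 2. Igha had 331, 362 and 161 reads against 246, 294 and 138, with a log2 fold change of 0.03 (SE 0.30, edgeR adjusted p = 0.963). Ighe was nearly silent, at 0, 4 and 1 reads against 0, 2 and 0. None of the 7 constant genes tested passed in edgeR (2 had an unadjusted p under 0.05).

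The ratio of Igkc to the B cell receptor pair Cd79a and Cd79b sets a gene that plasma cells make in bulk against genes that B cells keep. There were 4.41, 9.66 and 5.69 Igkc reads for each read of the pair in control and 16.5, 29.3 and 9.43 in Mttp-IKO pools. Only Mttp-IKO pool 3 fell inside the control range, just under control pool 2. The log2 difference was 1.41, with p = 0.2 in an exact two-sided permutation test (0.3 adjusted over 3 tests). Igkc itself had a log2 fold change of -0.07, so the ratio largely restates the lower reads of Cd79a and Cd79b and is no separate result. That pair passed the filter on low counts only through the control pools, and the ratio is given as a description. Kappa took 97.7, 95.1 and 98.6% of light chain constant reads in control and 98.4, 99.9 and 98.5% in Mttp-IKO pools, a difference of 1.78 percentage points (exact permutation p = 0.3). The remaining reads belonged to Iglc2, a lambda constant gene, with 9, 37 and 6 reads against 6, 1 and 2. The other lambda constant genes looked for, Iglc1, Iglc3 and Iglc4, had no row by that name. The kappa share is therefore set against Iglc2 only and is not the share among all light chains.

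Variable segments, the pieces that B cells join to make each antibody's binding site, gave a rough view of how many different antibodies the reads came from. Of 204 such genes, 163 had a read in some pool, and their reads summed to 387, 680 and 501 in control and 378, 599 and 113 in Mttp-IKO pools. Between 48 and 115 segments had reads in a pool, fewest in Mttp-IKO pool 3. Lambda segments had 32, 58 and 26 reads in control and 7, 8 and 4 in Mttp-IKO pools, without overlap, whereas kappa segments (207, 336 and 266 against 189, 290 and 31) and heavy segments (148, 286 and 209 against 182, 301 and 78) overlapped.

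Iglv3, a lambda segment named here after its values were seen (chromosome 16, 19241211 to 19241679, minus strand), passed the filter on low counts only through the control pools and is given as a description. It had 18, 14 and 14 reads in control and 2, 2 and 2 in Mttp-IKO pools, with a log2 fold change of -2.50 (SE 0.51, edgeR adjusted p = 0.0401). The adjusted p was 0.0766 with no filter on low counts, 0.0556 with limma-voom and 0.0595 to 0.167 with 1 pool left out. Iglv1 and the much rarer Iglv2, also named after their values were seen, share 22.2% of the 50-base stretches of Iglv1, so their reads are not cleanly apart, and Iglv2 had 0, 12 and 4 reads against 0, 5 and 0. Iglv1 had 14, 32 and 8 reads against 5, 1 and 2, and was not tested. The other segments with the most reads did not separate the genotypes: Igkv1-110 had 5, 14 and 9 reads against 12, 17 and 1, Ighv3-6 had 12, 20 and 8 against 5, 8 and 4, and Ighv1-9 had 8, 14 and 12 against 8, 14 and 0.

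Control pool 2 carried the highest Ighm count and 1 dominant segment. Igkv14-126 (chromosome 6, 67896177 to 67896642, plus strand) had 6, 78 and 2 reads in control and 6, 2 and 0 in Mttp-IKO pools, so that 11.5% of all segment reads in control pool 2 were on this gene. Ighv11-2 (chromosome 12, 114048241 to 114048704, minus strand), named after its values were seen, had 25 reads in the same pool, 4 in Mttp-IKO pool 1 and 0 in the other pools, and 38.6% of its 50-base stretches also occur in Ighv11-1. Antibodies that pair these segments are known from B-1 cells, a B cell subset of the body cavities and their fat, that bind phosphatidylcholine. The last 200 bases of each reference V exon (GENCODE M21, GRCm38) are shown because this pool held most reads of both genes, with capitals from the last conserved cysteine codon to the end, where the V exon enters the third complementarity-determining region.
Igkv14-126, chr6:67896443-67896642, plus strand: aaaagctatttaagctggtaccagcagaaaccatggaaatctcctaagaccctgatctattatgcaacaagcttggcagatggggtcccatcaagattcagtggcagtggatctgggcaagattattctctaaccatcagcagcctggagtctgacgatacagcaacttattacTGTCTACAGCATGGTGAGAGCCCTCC
Ighv11-2, chr12:114048241-114048440, minus strand: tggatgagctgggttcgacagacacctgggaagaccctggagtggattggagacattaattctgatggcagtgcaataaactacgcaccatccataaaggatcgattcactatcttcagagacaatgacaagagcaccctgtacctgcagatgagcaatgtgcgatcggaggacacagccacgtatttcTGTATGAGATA
The same pool carried fat cell transcripts: Adipoq, the fat cell hormone adiponectin, had 1, 55 and 0 reads in control and 4, 2 and 0 in Mttp-IKO pools. Plin1, which coats fat cell lipid droplets, had 2, 67 and 6 against 2, 0 and 7, and Cfd, the complement factor adipsin, had 25, 592 and 35 against 24, 4 and 0. Of the other genes on the list of 5 fat markers, Lep was at 0 in 4 of the 6 pools with 1 read in each of the others, and Cidec, which steatotic hepatocytes also express, was highest in control pool 1. Whether the fat cell transcripts bear on the immunoglobulin reads of this pool was not tested. Without control pool 2, the Ighm share differed by -25.5 percentage points and Cd22 by a log2 fold change of -2.16 (edgeR adjusted p = 0.00955).

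**Figure D3:**
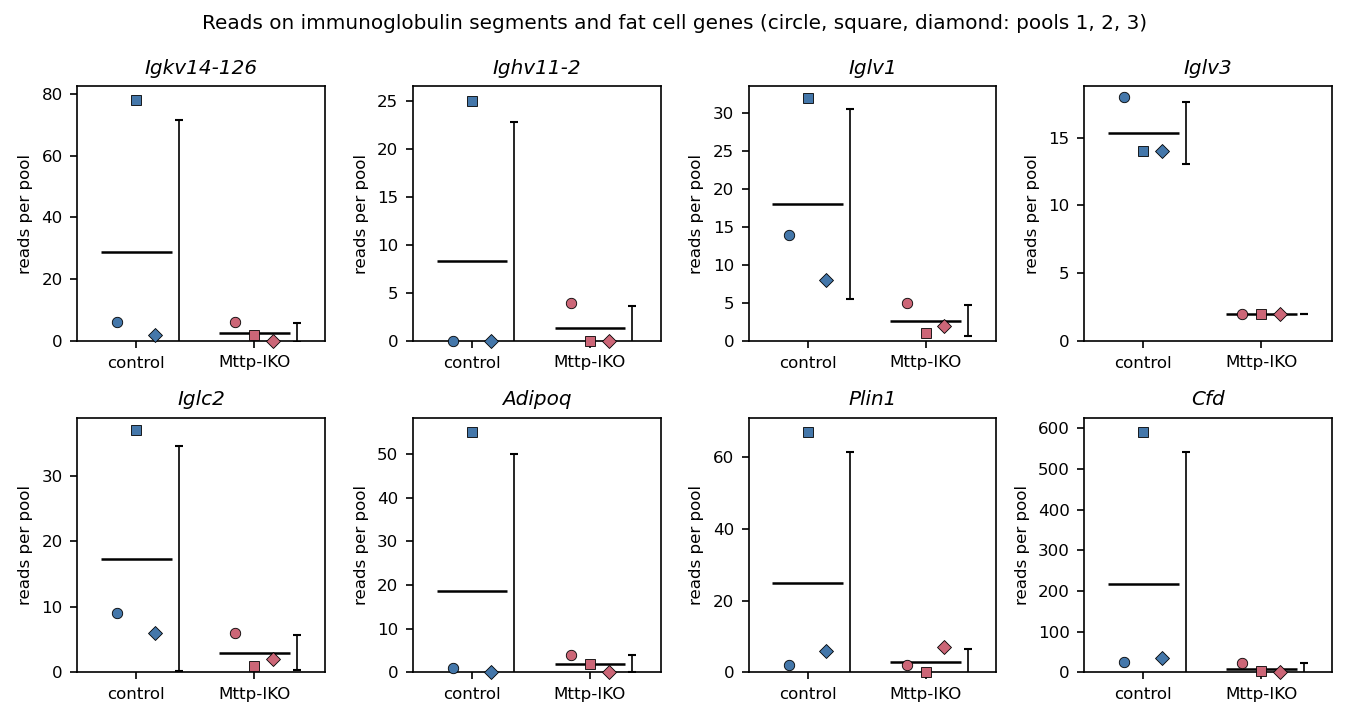
Reads per pool (vertical axes, not scaled for depth) on 4 antibody variable segments, the lambda constant gene Iglc2 and 3 fat cell genes in control and Mttp-IKO pools. Symbols are single pools, lines are means and bars are SD with the part under 0 left out; control pool 2, the blue square, is highest for 7 of the 8 genes, with Iglv3 the exception, where control pool 1 is highest.

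Wider lists of B cell and plasma cell genes held 108 genes with a row outside the members, and 95 were tested. Of these, 17 fell and 2 rose in Mttp-IKO livers (beside 3.09% and 0.92% of all genes), and the median log2 fold change was -0.75. Many of these genes are not confined to B cells. Among the 17 that fell, Spib, Bcl11a and Ccr7 passed the filter on low counts only through the control pools. The counts of called genes are therefore a description. Markers of all leukocytes were lower too: the summed level of 5 such genes was 151 to 331 CPM in control and 93.9 to 114 CPM in Mttp-IKO pools. Each of the 5 was lower without overlap (beside 16.5% of all genes tested), and 2 passed the test as lower (beside 3.09%). Ptprc, the leukocyte antigen CD45, had 2640, 1167 and 1751 reads against 809, 624 and 526 (log2 fold change -1.13, SE 0.25, edgeR adjusted p = 0.0515). Without control pool 1, control pool 3 or Mttp-IKO pool 2, none of the 95 passed in edgeR (34, 37 and 42 had an unadjusted p under 0.05), 1 passed without Mttp-IKO pool 1, and 29 passed without control pool 2.

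**Figure D4:**
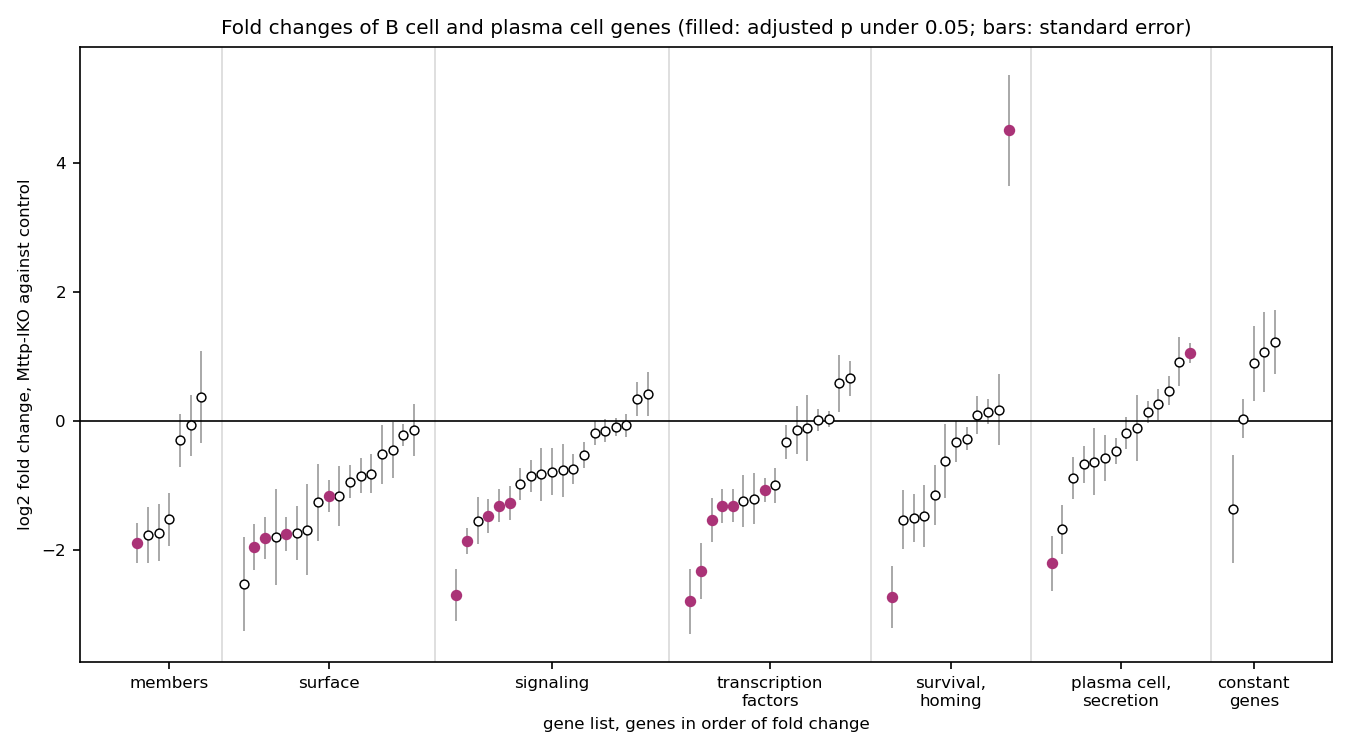
Log2 fold change of Mttp-IKO against control livers (vertical axis) for each tested gene of the members and of 6 wider lists, in order within each list. Filled symbols have an edgeR adjusted p under 0.05 and bars are SE; 1 member and 17 wider-list genes are filled below 0, and Cxcl13 and Tent5c are filled above 0.

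Set against Ptprc within each pool, Cd22 was still lower. There were 10.7, 11.6 and 13.2 Cd22 reads per 100 Ptprc reads in control and 6.06, 8.49 and 6.46 in Mttp-IKO pools, without overlap, a log2 difference of -0.77 (exact permutation p = 0.1, the smallest possible, and 0.48 adjusted over 6 genes). Cd79a (1.82, 3.68 and 2.57 against 1.48, 3.04 and 1.14), Cd79b (1.48, 2.66 and 1.66 against 1.24, 0.641 and 1.52) and Ighm (10.8, 64.9 and 24.5 against 24.2, 15.1 and 12.9) overlapped on this scale. For these 3 genes, the difference in level between genotypes did not stand apart from that of Ptprc beyond the spread of the pools. Igkc (14.5, 61.3 and 24.0 against 44.9, 108 and 25.1) and Jchain (1.70, 7.54 and 2.17 against 5.19, 7.21 and 4.18) went the other way on this scale and overlapped. Their log2 differences were 0.834 and 0.830 (exact permutation p = 0.4 for each).

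Surface and coreceptor genes were lower in all 17 tested, and 4 of them fell, with a median log2 fold change of -1.17. Cd180, a Toll-like receptor relative on B cells and macrophages, had 564, 232 and 386 reads against 77, 111 and 49 (log2 fold change -1.96, SE 0.35, edgeR adjusted p = 0.0302). The others that fell were Spn, the sialoprotein CD43 (-1.76), Cd83, a marker of activated B cells and dendritic cells (-1.82), and Cd24a, a small glycosylated surface protein (-1.17). Fcmr, an IgM receptor, had 10, 33 and 18 reads against 2, 2 and 0 and was not tested. Of the genes with the most reads, Cd1d1, which presents lipid antigens, had a log2 fold change of -0.22 (SE 0.17) and Cd9, a tetraspanin of many cell types, had -0.82 (SE 0.30), and neither passed.

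Receptor signaling genes fell in 5 of 19 tested, with a median log2 fold change of -0.79. Blnk, the adaptor that couples the receptor to its effectors, had 831, 609 and 718 reads against 203, 138 and 121 (log2 fold change -1.87, SE 0.20, edgeR adjusted p = 0.0126). Plcg2 (-1.48), Prkcb (-1.32) and Syk (-1.27), enzymes of the same cascade that myeloid cells also use, fell as well. The kinases Btk (-1.55, SE 0.36) and Blk (-0.83, SE 0.41) did not pass. The 3 with the most reads, Cd81, Vav2 and Pik3ap1, are expressed well beyond B cells and had log2 fold changes of -0.07, -0.10 and 0.34, none of which passed.

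Transcription factor genes fell in 6 of 16 tested, with a median log2 fold change of -1.04. Spib, of B cells and plasmacytoid dendritic cells, had 96, 52 and 50 reads against 8, 3 and 10 (log2 fold change -2.80, SE 0.50, edgeR adjusted p = 0.0300). Bcl11a, needed early in the B lineage, had 105, 71 and 93 reads against 10, 10 and 20 (-2.33, SE 0.43, edgeR adjusted p = 0.0327). Spib and Bcl11a passed the filter on low counts only through the control pools and are given as a description. Irf8 (-1.32), Spi1 (-1.32), Mef2c (-1.07) and, at the threshold with an edgeR adjusted p of 0.0499, Irf4 (-1.54) also fell. Ebf1 (75, 74 and 29 reads against 22, 17 and 19) and the octamer coactivator gene Pou2af1 (21, 19 and 26 against 16, 27 and 6), both of the B lineage, did not pass. Foxo1 and Tcf3, with the most reads, had log2 fold changes of 0.66 and 0.03 and did not pass.

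Of 8 markers of plasmacytoid dendritic cells, which share some genes with B cells, 2 fell (beside 3.09% of all genes tested). Without overlap, 4 were lower (beside 16.5% of all genes tested). Their summed level was 170 to 275 CPM in control and 36.7 to 113 CPM in Mttp-IKO pools. Siglech, a defining surface receptor of these cells, had 204, 61 and 116 reads against 10, 6 and 8 (log2 fold change -3.58, SE 0.50, edgeR adjusted p = 0.0181), so that it was still detected in every pool. It passed the filter on low counts only through the control pools and is given as a description. The 12 T cell markers, of which 11 were tested, summed to 9.61 to 18.3 CPM in control and 6.20 to 9.01 CPM in Mttp-IKO pools, with a median log2 fold change of -0.94 and none past the test in edgeR (4 had an unadjusted p under 0.05). The 8 markers of Kupffer cells and macrophages summed to 515 to 853 CPM in control and 372 to 768 CPM in Mttp-IKO pools, which overlap, with a median log2 fold change of -0.41. None was called lower in edgeR and 1 was called higher, Timd4. Of the 8, 6 had an unadjusted p under 0.05, and 5 were lower and 3 higher. The 7 neutrophil markers summed to 14.6 to 30.1 CPM against 12.6 to 21.8 CPM, and none of the 6 tested passed in edgeR (1 had an unadjusted p under 0.05). Markers of hepatocytes, 7 in number, summed to 55540 to 92682 CPM in control and 107515 to 165214 CPM in Mttp-IKO pools without overlap, with a median log2 fold change of 0.70 and none past the test in edgeR (4 had an unadjusted p under 0.05). What part other leukocytes or hepatocytes have in the wider lists was not tested.

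The chemokine gene Cxcl13 rose, while the homing receptor gene Ccr7 fell. Cxcl13, which draws B cells into follicles, had 17, 60 and 24 reads in control and 1334, 490 and 104 in Mttp-IKO pools. Every Mttp-IKO pool was above every control pool, yet the Mttp-IKO pools spread over a wide range, 21.4 ± 19.7 CPM against 0.944 ± 0.643 CPM (SD, n = 3 pools each). Its log2 fold change was 4.50 (SE 0.86, edgeR adjusted p = 0.0346), from 3.49 to 5.20 with 1 pool left out, and the call was lost with limma-voom (0.0920) and without control pool 1 (0.144), control pool 3 (0.145), Mttp-IKO pool 1 (0.0736) or Mttp-IKO pool 2 (0.118). Cxcr5, its receptor on B cells, had 25, 10 and 28 reads against 7, 18 and 7 (-0.63, SE 0.58, edgeR adjusted p = 0.556). Of the other genes on a list of lymphoid stroma markers, Ccl21a was at 0 in all pools and Madcam1 had 4, 2 and 0 reads against 0, 0 and 0.

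Ccr7, which guides B cells, T cells and dendritic cells to lymphoid tissue, had 100, 38 and 67 reads against 6, 7 and 10 (log2 fold change -2.73, SE 0.48, edgeR adjusted p = 0.0293). It passed the filter on low counts only through the control pools and is given as a description. Tnfsf13b, the survival factor BAFF, had 51, 20 and 31 reads against 13, 7 and 7 (-1.53, SE 0.46, edgeR adjusted p = 0.105). This gene too passed the filter only through the control pools and is given as a description. The BAFF receptor gene Tnfrsf13c had 10, 2 and 12 against 0, 0 and 5 and was not tested. Tnfrsf13b, the receptor TACI, had 94, 35 and 58 reads against 17, 27 and 8 and did not pass (-1.48, SE 0.48). In all, 1 of the 12 tested survival and homing genes rose and 1 fell. Cxcl12 and S1pr1, which the liver vasculature and stroma express, had log2 fold changes of -0.28 and 0.14 and did not pass.

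**Figure D5:**
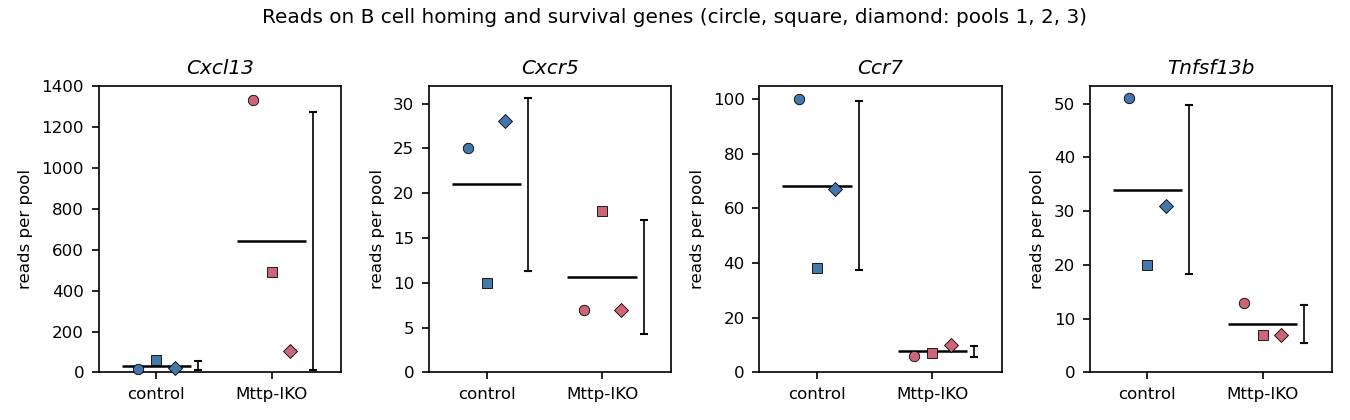
Reads per pool (vertical axes, not scaled for depth) on Cxcl13, its receptor gene Cxcr5, Ccr7 and Tnfsf13b in control and Mttp-IKO pools. Symbols are single pools, lines are means and bars are SD; Cxcl13 runs from 17 to 60 reads in control and from 104 to 1334 in Mttp-IKO pools, and Ccr7 from 38 to 100 and from 6 to 10.

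Plasma cell and antibody secretion genes changed in 2 of 14 tested, with a median log2 fold change of -0.33. Slamf7, a surface receptor of plasma cells that other leukocytes also carry, fell from 292, 102 and 205 reads to 30, 27 and 40 (-2.21, SE 0.42, edgeR adjusted p = 0.0348). Tent5c, a poly(A) polymerase that stabilizes antibody mRNA and is expressed in other tissues, rose from 592, 553 and 546 reads to 1150, 869 and 726 (1.05, SE 0.16, edgeR adjusted p = 0.0192). The genes most restricted to plasma cells were scarce: Mzb1, an endoplasmic reticulum protein of antibody assembly, had 5, 8 and 7 reads against 4, 12 and 5, and Tnfrsf17, the plasma cell receptor BCMA, had 1, 3 and 2 against 0, 2 and 0. Derl3, a plasma cell protein of endoplasmic reticulum quality control, had 90, 161 and 89 reads against 53, 43 and 46 (-0.89, SE 0.33, edgeR adjusted p = 0.159). Prdm1, the factor that drives plasma cell formation, had 200, 75 and 162 reads against 35, 38 and 32 (-1.68, SE 0.38, edgeR adjusted p = 0.0523). Txndc5, Sdc1 and Edem1, which hepatocytes express at high levels, had log2 fold changes of -0.19, -0.47 and 0.14 and did not pass.

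Genes of early B cell development and class switching gave little signal. Rag1 had no read in any pool, which allows up to 0.126 CPM in the shallowest, and Rag2, Vpreb1 and Igll1 had at most 5 reads in any pool. None of the 4 tested genes of this list passed in edgeR (1 had an unadjusted p under 0.05), which were Ung (-0.01), Dntt (-0.39), Vpreb3 (0.32) and Il7r (-1.40, SE 0.41, edgeR adjusted p = 0.0945).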

How the data were processed

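Total liver RNA depleted of ribosomal RNA was sequenced from 3 control and 3 Mttp-IKO pools, grouped by the genotype labels. The authors aligned reads to GRCm38 (Ensembl release 76) with STAR 2.5.1a and used featureCounts 1.4.6-p5 to count, for each gene, reads with a single alignment that fell on no other gene. The deposited files hold raw counts with CPM and RPKM columns. The counts were tested and RPKM served to compare genes. Between 60.5 and 64.1% of counts from 1 to 20 were even, and genes with 2 reads outnumbered genes with 1 read in every pool, so counts may hold both mates of a pair, and intervals cover counting error only. Whether counting used strand is not given in the sources used here. edgeR 4.0.16 (R 4.3.3) fitted TMM-scaled counts of those of the 41388 genes in the pool files passing filterByExpr (minimum count 10, minimum total 15), without a replicate term, and CPM in the text is TMM-scaled. Within-pool shares were tested with exact permutation tests (scipy 1.17.1). The fit was tested on simulated counts. Alternatives were DESeq2 1.42.0, limma 3.58.1 (voom), other scalings, filters and thresholds, a replicate block and leaving out pools, and, added after the data were seen, the Ighm share without Igha and ratios to Ptprc. Named genes are the members, each wider list's called genes (at most 6) and 3 with most reads, constant genes, the 5 segments with most reads, the 5 genes most like the members in pattern, and markers of other cells. Further genes were chosen after their values were seen. The members and lists were chosen with earlier results of these data known. Nothing shows whether pools came from separate cohorts, so p-values measure the spread between pools only. Values of some single genes of the wider lists are not reported here.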

Additional observations from a re-analysis of the deposited data

How the results depend on the processing

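Low counts and 3 pools per genotype limit these results, and pools that differ in short RNAs or fat cell transcripts add to the spread. Across all genes, 694 passed (535 lower and 159 higher), against 1995 with DESeq2 (1338 and 657), 428 with limma-voom (312 and 116), 1015 with total count scaling (902 and 113) and 1659 at an adjusted p under 0.1. Total count scaling moved the median log2 fold change of all genes by -0.18. Leaving out 1 pool gave 0 to 892 genes, where the 0 (without Mttp-IKO pool 2, in edgeR) stood beside 3221 genes with an unadjusted p under 0.05. Of the members, 1 passed, against 4 with DESeq2, 4 with total count scaling, 4 at an adjusted p under 0.1, 2 with no filter, and 0 to 1 with 1 pool left out, where each 0 in edgeR stood beside 4 with an unadjusted p under 0.05. Of the wider lists, 19 genes passed, against 32 with DESeq2, 8 with limma-voom, 30 at an adjusted p under 0.1 and 0 to 29 with 1 pool left out. Pools share only a number: deviations of same-numbered pools correlated at 0.14, 0.11 and 0.01, and with the replicate block 595 genes, 1 member and 17 wider-list genes passed. In the block the calls of Cd180, Cd83, Irf4 and Iglv3 were lost (edgeR adjusted p 0.0505 to 0.0855) and Ptprc passed (0.0442).

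The Ighm share, the kappa share and the Igkc ratio kept their direction in every alternative run, with ranges of -36.0 to -23.7 and 0.759 to 2.52 percentage points and of 0.9999 to 1.82 on the log2 scale when 1 pool was left out. Of 58 single genes in 768 comparisons with an alternative, 609 kept direction and side of the threshold, 115 lost the call, 19 gained it and 25, in 13 genes, changed sign. None of these 13 had passed. With total count scaling the log2 fold change became -0.152 for Tcf3, -0.0364 for S1pr1, -0.0332 for Edem1 and -0.150 for Igha. Upper quartile scaling gave -0.000168 for Tcf3. For Ung, DESeq2 size factors gave 0.00651 and DESeq2 gave 0.00656. Leaving out 1 pool gave ranges that crossed 0, from -0.711 to 0.298 for Igkc, -0.525 to 0.133 for Jchain, -0.0281 to 1.10 for Pax5, -0.166 to 0.0602 for Cd81, -0.0314 to 0.496 for Pik3ap1, -0.0179 to 0.0575 for Tcf3, -0.00425 to 0.256 for S1pr1, -0.137 to 0.212 for Ung, -0.222 to 0.242 for Igha, -0.0916 to 1.43 for Ighg2c, -0.221 to 0.878 for Igkv1-110 and -1.18 to 0.210 for Ighv1-9. The causes were not tested.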

Other observations

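Receptors and transporters that carry antibody formed a list of their own. Pigr, which moves IgA into bile, had 15147, 25947 and 17822 reads in control and 19271, 29110 and 21002 in Mttp-IKO pools, with a log2 fold change of 0.60 (SE 0.29, edgeR adjusted p = 0.259). Fcgrt, the neonatal Fc receptor that recycles IgG, had a log2 fold change of -0.11 (SE 0.16) and Fcgr2b, the inhibitory IgG receptor that liver sinusoidal endothelium expresses, had -0.09 (SE 0.16). Fcamr, a receptor for IgA and IgM, had 26, 44 and 29 reads against 72, 83 and 29 (1.21, SE 0.41, edgeR adjusted p = 0.135). None of the 9 genes of this list passed in edgeR (3 had an unadjusted p under 0.05).

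The genes whose levels followed the sum of Cd22, Cd79a, Cd79b, Ms4a1 and Pax5 most closely over the 6 pools were Capg (r = 0.999), Arhgdib (0.999), Pam (0.998), Rcbtb2 (0.998) and Tcf21 (0.998), on the log2(CPM + 0.5) scale. Cd22 makes up most of this sum, with a control mean of 5.99 CPM beside 1.26 for Cd79a, 0.910 for Cd79b, 0.264 for Ms4a1 and 0.248 for Pax5. The pattern is therefore mainly that of Cd22. Those that followed Igkc were Uqcrc1 (0.993), Atp5a1 (0.993), Rbm17 (0.991), Rspo1 (0.990) and Arfrp1 (0.989). These are the highest of 17287 correlations over 6 pools that differ by genotype, and they describe these pools only.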
